A study of Mus musculus with 5 samples.

Results

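The 10 genes described here are the Fos, Jun and Egr transcription factor genes *Fos*, *Fosb*, *Jun*, *Junb*, *Egr1*, *Egr2* and *Egr3*, the synaptic plasticity gene *Arc*, and the nuclear receptor genes *Nr4a1* and *Nr4a3*. They were chosen by symbol, each through the 1 RefSeq transcript that carries it, out of 20178 transcripts counted in 5 RNA-seq libraries of cultured mouse cells. All cells were of the ICR strain at passage 2, and each condition had 1 library. Of the ventral midbrain (VM) astrocyte cultures, made from pups at postnatal day 5, 1 library is titled VM and has no entry for a virus, 1 is titled C and 1 is titled NF. The titles make C the mock control and NF the culture given lentiviruses for Nurr1 (*Nr4a2*) and Foxa2, whereas the transduction entries state the reverse. The libraries are therefore named by title throughout, and no direction is assigned to the viruses. The vectors drove both cDNAs from a CMV promoter, and the mock virus carried the empty backbone. The remaining libraries came from cortical (Ctx) astrocytes at postnatal day 5 and from Ctx neural precursor cells (NPCs) of embryonic day 12, with no virus entry. With no replicate library, no test of the conditions was possible, and the intervals given for single genes cover the counting error of reads only.

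Immediate early genes are switched on within minutes of a stimulus, without new protein synthesis. MAP kinase signals reach them through serum response factor and its Elk partners at the serum response element (SRE), and cyclic AMP and calcium signals through CREB at the cyclic AMP response element (CRE). Fos proteins pair with Jun proteins as the factor AP-1, Egr proteins bind GC-rich sites through zinc fingers, and Nr4a receptors work without a known activating ligand at the NBRE site. In glial cultures, these genes are known to answer serum, growth factors, cytokines and handling.

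The promoter bases of 5 members are shown because these genes fell into different patterns across the libraries. *Fos*, *Junb* and *Nr4a1* were lowest or nearly lowest in the C library, *Egr2* was high there, and *Jun* was nearly level. RefSeq (GRCm38.p6) gave a window before the start site for 7 of the 10 members, and *Egr2* had 5 start sites. Each sequence is the 250 bases upstream of a start site, on the strand of the gene. Capitals mark the CRE core TGACG on either strand and, in *Egr2*, the SRE (CArG box). The windows lie at chr12:85473640-85473889 for *Fos* (plus strand), chr8:84978749-84978998 for *Junb* (minus), chr15:101266596-101266845 for *Nr4a1* (plus), chr4:95052223-95052472 for *Jun* (minus) and chr10:67537619-67537868 for the third start site of *Egr2* (plus). None of these 5 windows overlaps an annotated exon of GENCODE M21. The *Nr4a1* and *Egr2* windows lie in introns of longer transcripts of the same genes, and the *Jun* window lies in an intron of the noncoding gene *Junos* of the opposite strand.
Fos: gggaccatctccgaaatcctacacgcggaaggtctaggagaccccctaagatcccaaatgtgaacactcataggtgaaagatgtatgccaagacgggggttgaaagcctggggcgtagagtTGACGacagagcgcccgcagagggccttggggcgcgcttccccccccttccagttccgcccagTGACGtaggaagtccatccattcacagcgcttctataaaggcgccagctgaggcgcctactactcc
Junb: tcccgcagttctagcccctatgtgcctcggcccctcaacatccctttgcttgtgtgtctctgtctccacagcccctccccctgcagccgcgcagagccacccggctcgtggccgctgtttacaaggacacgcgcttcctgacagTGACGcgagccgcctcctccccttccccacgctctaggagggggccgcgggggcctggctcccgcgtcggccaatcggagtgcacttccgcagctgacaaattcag
Nr4a1: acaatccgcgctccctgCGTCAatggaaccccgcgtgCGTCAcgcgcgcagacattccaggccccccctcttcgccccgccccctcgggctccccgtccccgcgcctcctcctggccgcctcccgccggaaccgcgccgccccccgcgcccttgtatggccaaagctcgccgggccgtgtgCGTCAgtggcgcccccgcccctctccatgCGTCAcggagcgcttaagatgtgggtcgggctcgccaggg
Jun: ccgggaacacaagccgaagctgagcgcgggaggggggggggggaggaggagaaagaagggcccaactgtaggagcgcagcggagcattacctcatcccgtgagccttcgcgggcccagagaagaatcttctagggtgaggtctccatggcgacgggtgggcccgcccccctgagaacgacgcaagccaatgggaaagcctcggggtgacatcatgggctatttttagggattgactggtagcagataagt
Egr2: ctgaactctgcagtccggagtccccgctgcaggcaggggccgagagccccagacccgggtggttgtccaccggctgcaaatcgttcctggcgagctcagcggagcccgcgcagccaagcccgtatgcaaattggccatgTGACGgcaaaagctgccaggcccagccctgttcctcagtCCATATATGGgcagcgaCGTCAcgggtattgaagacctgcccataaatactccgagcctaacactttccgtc
The core TGACG was present in 8 of the 11 windows of the members and in 17.8% of 32851 promoter windows of the same length. Some windows not printed overlap exons of their own genes, by 152 bases in *Nr4a3* and 6 in *Fosb*. The windows of *Egr2* start sites 1, 4 and 5 do so by 24, 1 and 61 bases. The windows of *Egr2* start sites 3, 4 and 5 overlap and hold the same cores, so they are not separate matches. Start sites 1 and 2 of *Egr2* had none. By gene, the core was found in 6 of the 7 members, and *Jun* was the exception. The *Nr4a1* window held it at 4 places. The SRE was found in 4 windows, all of *Egr2* and partly overlapping, and in 1.47% of all windows. The whole CRE TGACGTCA, which contains the core, was in 1.55% of all windows and in none of the members' windows. The same held for the AP-1 site (TGACTCA or TGAGTCA, 4.46%), the Egr site GCGTGGGCG (0.536%) and the NBRE AAAGGTCA (1.34%). The absence of a match concerns these letters within 250 bases only.

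Library totals lay between 20010818 and 22554835 reads, so that 3 reads, taken as the smallest measurable count, had a CPM (reads per 1000000 counted reads) between 0.133 and 0.150. *Nr4a2* was highest in the NF library, with 183 reads against 53 in C and 81 in VM, and *Foxa2* likewise, with 216, 15 and 68 reads. *Foxa2* had 1 read in Ctx astrocytes and 0 in Ctx NPCs, and *Nr4a2* 106 and 93. Both transduced genes were thus higher in the library whose transduction entry is the mock virus. Reads of the mouse Nurr1 cDNA and of the endogenous gene cannot be told apart. The paper's methods mark the Foxa2 cDNA as rat, although the same sentence calls all the cDNAs mouse genes. How far reads of a rat cDNA were counted as mouse *Foxa2* was not tested. C stood apart from the other VM libraries in the number of genes past 2-fold, and the comparison of NF with VM, given last for these cultures, is the 1 without it. All 9 astrocyte markers were detected in each library, but their summed CPM was higher in Ctx NPCs (10693) than in the astrocyte libraries (1593 to 4312). The 7 oligodendrocyte markers summed to a CPM of 7686 in Ctx NPCs and 217 to 429 elsewhere. Of the 5 neural progenitor markers, *Sox2*, *Pax6*, *Hes5* and *Sox1* were highest in Ctx NPCs, with a *Hes5* CPM of 52.5 there and 0 to 0.93 elsewhere, while *Nes* was highest in C (1951 against 667 in Ctx NPCs). The Ctx NPC library thus held progenitor markers together with those of astrocytes and oligodendrocytes. The labels call the astrocytes progenitor cells. The 13 microglial markers found in the tables summed to a CPM of 1218 in C, 335 in VM, 251 in NF, 139 in Ctx astrocytes and 27.3 in Ctx NPCs, where *Trem2* was at 0. The 6 vascular and fibroblast markers summed to a CPM of 2658 in VM, 1428 in C, 2609 in NF, 1098 in Ctx astrocytes and 376 in Ctx NPCs, where *Cdh5* was at 0. *Acta2* and *Col1a1* made up most of that sum in each library, and the other 4 markers were higher in C than in VM. In such cultures, fewer cells of a type and less RNA per cell cannot be told apart. *Ppia*, a housekeeping gene of all cells, had 0 reads in 3 libraries, so a 0 in these tables was not read as absence.

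The C library was the lowest for *Fos*, *Egr1* and *Junb*. Levels are given as FPKM, which is per transcript length and library total. Shares and ratios between genes carry a limit. The housekeeping genes *Gapdh* and *Ppia* had only 1 to 10 and 0 to 4 reads per library, so the counts do not capture all genes alike. *Fos* (NM_010234, chromosome 12 from 85473890 to 85477274), the founding AP-1 subunit, had an FPKM of 82.4 in VM, 27.7 in C, 114 in NF, 73.0 in Ctx astrocytes and 127 in Ctx NPCs, on 1313 to 5336 reads. C stood far below the other 4 libraries, and by library totals each step in the order of the libraries exceeded the counting error. The top step, Ctx NPCs over NF (CPM 267 and 238), had an interval of 0.11 to 0.22 in log2 ratio. Other scalings, which moved log2 ratios of members by at most 0.18, were not applied to this order. The highest library had 4.58 times the CPM of the lowest, at percentile 76.9 of the 12535 genes that reached a CPM of 5 anywhere, for which the median was 2.21.

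*Fosb* (NM_008036, chromosome 7 from 19302696 to 19310118), whose shorter splice form accumulates after repeated stimulation, had an FPKM of 2.12 in VM, 2.69 in C, 2.85 in NF, 4.58 in Ctx astrocytes and 1.16 in Ctx NPCs, on 88 to 371 reads. Its order differed from that of *Fos*, with Ctx astrocytes highest and Ctx NPCs, the library with most *Fos* by library total, lowest. C and NF did not differ beyond counting error. The table gives 1 row for *Fosb*, so its splice forms were not separated. The FPKM of *Fos* was 10.3 times that of *Fosb* in C and 109 times in Ctx NPCs.

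*Jun* (NM_010591, chromosome 4 from 95049036 to 95052222), the main partner of Fos, had an FPKM of 108 in VM, 98.1 in C, 116 in NF, 107 in Ctx astrocytes and 88.5 in Ctx NPCs, on 5643 to 7547 reads. It was the steadiest member, with a highest library only 1.32 times the lowest, at percentile 6.85 of the 12535 genes. *Junb* (NM_008416, chromosome 8 from 84976909 to 84978748), an AP-1 subunit that can oppose Jun, had an FPKM of 229 in VM, 104 in C, 261 in NF, 227 in Ctx astrocytes and 136 in Ctx NPCs, on 4308 to 9772 reads. VM and Ctx astrocytes did not differ beyond counting error for either gene. The ratio of *Junb* to *Jun* FPKM was 2.11 in VM, 2.24 in NF and 2.12 in Ctx astrocytes, but 1.06 in C and 1.54 in Ctx NPCs.

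The 3 Egr genes did not share an order. *Egr1* (NM_007913, chromosome 18 from 34861207 to 34864956), the most abundant Egr factor, had an FPKM of 182 in VM, 52.3 in C, 272 in NF, 94.9 in Ctx astrocytes and 86.9 in Ctx NPCs, on 3626 to 17014 reads. NF was highest and C lowest, 5.20-fold apart in CPM. *Egr2* (NM_010118, chromosome 10 from 67534469 to 67542188), known for its roles in hindbrain and Schwann cell development, had an FPKM of 1.91 in VM, 8.97 in C, 2.82 in NF, 2.94 in Ctx astrocytes and 30.7 in Ctx NPCs, on 121 to 1823 reads. Ctx NPCs and C were the high libraries, 16.0-fold separated the highest from the lowest CPM (percentile 90.3), and NF and Ctx astrocytes did not differ beyond counting error. The noncoding gene *Gm32255* overlaps the *Egr2* locus, and the strand setting of the counting is not given in the sources used here, so reads of the 2 genes may not be separate.

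*Egr3* (NM_018781, chromosome 14 from 70077317 to 70082613), an Egr factor of muscle spindles, neurons and lymphocytes, had 33 reads in VM, 160 in C, 31 in NF, 13 in Ctx astrocytes and 25 in Ctx NPCs. Its FPKM was 1.83 in C and 0.157 to 0.40 elsewhere. Only C stood out, and the steps from VM to NF and from NF to Ctx NPCs lay within counting error. Among the Egr genes, *Egr1* held 98.7% of the summed FPKM of *Egr1*, *Egr2*, *Egr3* and *Egr4* in VM, 98.8% in NF and 96.8% in Ctx astrocytes, against 82.4% in C and 73.4% in Ctx NPCs. *Egr2* held 14.1% in C and 26.0% in Ctx NPCs.

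*Arc* (NM_018790, chromosome 15 from 74669081 to 74672570), which acts at synapses and in neurons follows activity, had an FPKM of 1.72 in VM, 1.84 in C, 2.41 in NF, 2.44 in Ctx astrocytes and 5.32 in Ctx NPCs, on 112 to 326 reads. Ctx NPCs were highest, and the other 4 libraries lay close together. The steps from Ctx astrocytes to NF and from C to VM lay within counting error. Against Ctx astrocytes, Ctx NPCs had more reads per library total for 6 of the 7 neuron markers, with a median log2 ratio of 3.70 over the list, and fewer for *Stmn2*. Their summed CPM was 1033 in Ctx NPCs and 418 to 691 in the other libraries, where *Stmn2* made up most of it. The part of neurons in the *Arc* value was not tested.

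*Nr4a1* (NM_010444, chromosome 15 from 101253902 to 101274795), which encodes Nur77, had an FPKM of 14.3 in VM, 6.45 in C, 15.0 in NF, 6.20 in Ctx astrocytes and 17.0 in Ctx NPCs, on 330 to 843 reads. The libraries fell into a lower pair, C and Ctx astrocytes, and a higher trio, and the members of the lower pair did not differ beyond counting error. *Nr4a3* (NM_015743, chromosome 4 from 48045078 to 48086447), which encodes NOR1, had 49 reads in VM, 13 in C, 81 in NF, 15 in Ctx astrocytes and 66 in Ctx NPCs. Its FPKM stayed between 0.103 and 0.714, below the filter of 1 in each library, so it entered no count of changed genes. It was low in the same pair of libraries as *Nr4a1*. Of the summed FPKM of the Nr4a genes, *Nr4a1* held 89.9% in VM, 88.4% in C, 80.9% in NF, 78.7% in Ctx astrocytes and 89.2% in Ctx NPCs, and *Nr4a2* held 15.3% in NF and 7.54% to 19.7% elsewhere.

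**Figure D1:**
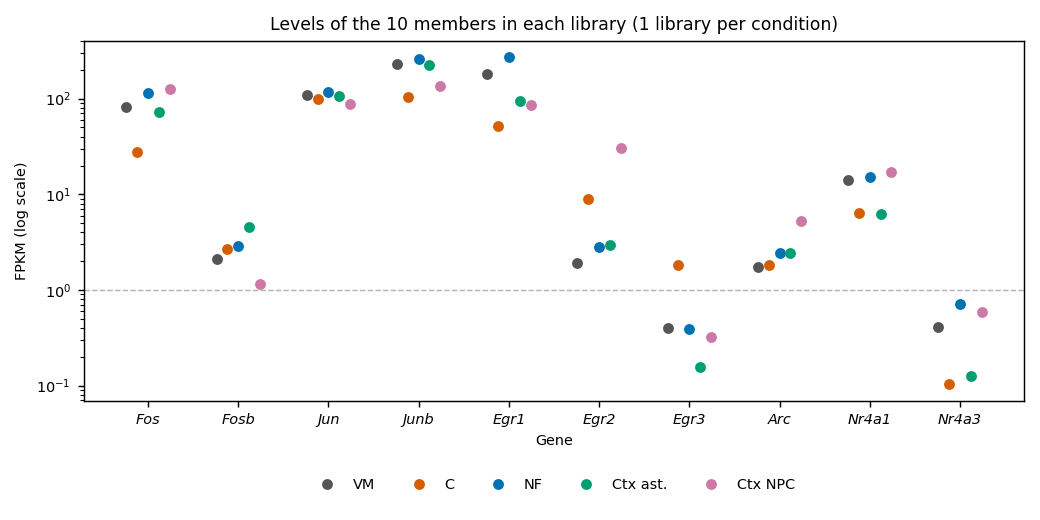
Level of each of the 10 members in the 5 libraries, as FPKM on a log scale, 1 point per library, with a dashed line at 1. The C library is lowest for *Fos*, *Junb* and *Egr1* and highest for *Egr3*, and the points of *Jun* nearly coincide, between 88.5 and 116.

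**Figure D2:**
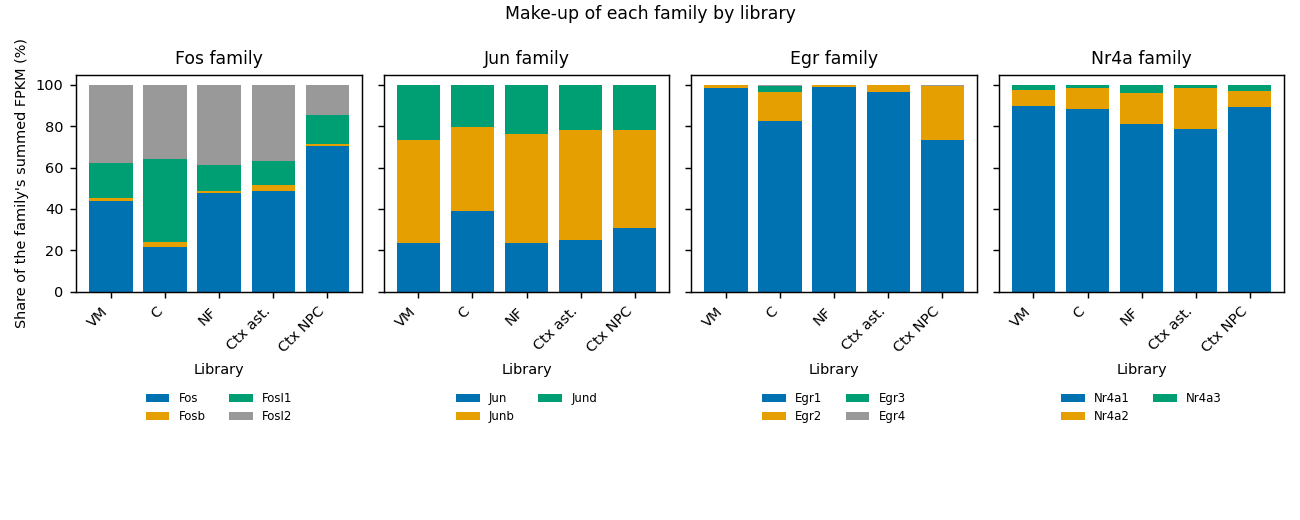
Share of each gene in the summed FPKM of its family, in percent, 1 stacked bar per library. *Fos* makes up 21.8% of the Fos family in C and 70.6% in Ctx NPCs, and *Egr2* is visible as a large share only in C (14.1%) and Ctx NPCs (26.0%).

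The comparison of C with VM sets a culture with a virus entry against 1 without. *Fos*, *Junb*, *Egr1* and *Nr4a1* were lower in C by at least 2-fold, and *Egr2* and *Egr3* were higher. Thus 4 of the 10 members were lower, where 8.48% of 12703 genes were, and 2 were higher, where 7.3% were. Genes entered these counts with FPKM > 1 on either side of the comparison, which 9 members met, *Egr3* only through C. *Egr1* was 3.48-fold lower in C (log2 ratio -1.80, 95% counting interval -1.85 to -1.75) and *Fos* was 2.97-fold lower (-1.57, -1.66 to -1.48). *Junb* and *Nr4a1* were both 2.21-fold lower (log2 ratio -1.14 each). In the other direction, *Egr2* was 4.67-fold higher (log2 ratio 2.22, 1.94 to 2.52) and *Egr3* 4.53-fold higher (2.18, 1.65 to 2.78). *Nr4a3*, outside the filter, had a log2 ratio of -1.96 (-3.00 to -1.09). *Jun* (-0.14), *Fosb* (0.34) and *Arc* (0.10) stayed within 2-fold, and the interval of *Arc* held 0. All 13 microglial markers, 6 of 7 oligodendrocyte markers and all 4 oligodendrocyte progenitor markers were higher in C than in VM. So were 5 of 7 neuron markers (median log2 ratio 1.37) and 4 of 6 vascular and fibroblast markers (0.64). In contrast, 4 of 5 neural progenitor markers were lower in C, with *Hes5* at 0. The part of these cells in the values of the members was not tested.

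The comparison of NF with C, the pair whose labels conflict, uses the same C library, so its values are not independent of those above. Here *Fos*, *Junb*, *Egr1* and *Nr4a1* were higher in NF (4 of 10 members, against 9.53% of 12701 genes) and *Egr2* and *Egr3* were lower (2 of 10, against 9.73%). The FPKM filter was met by 9 members, and by *Egr3* only through C, where it was high. *Egr1* was 5.20-fold higher in NF (log2 ratio 2.38, 2.33 to 2.43), *Fos* 4.09-fold (2.03, 1.94 to 2.12), *Junb* 2.52-fold and *Nr4a1* 2.32-fold. *Egr3* was 4.60-fold lower in NF (log2 ratio -2.20, -2.82 to -1.66) and *Egr2* 3.18-fold lower (-1.67, -1.92 to -1.42). *Nr4a3* had 81 reads against 13, a log2 ratio of 2.74 (1.93 to 3.76). *Fosb* did not differ beyond counting error. All 13 microglial markers (median log2 ratio -2.66), 6 of 7 oligodendrocyte markers (-3.53) and all 4 oligodendrocyte progenitor markers (-1.23) were lower in NF than in C, and 4 of 5 neural progenitor markers (1.01) were higher. Their part was not tested. If the transduction entries rather than the titles are right, each of these signs describes mock virus against Nurr1 and Foxa2.

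Between NF and VM, no member passed 2-fold in either direction. This pair differed little in general, with 0.668% of 12428 genes lower and 0.322% higher in NF. Still, 9 of the 10 members had a log2 ratio above 0, and the interval lay above 0 in 8. The share of all genes with a ratio or an interval above 0 is not given here. Of the lists described below, 9 of 12 early regulators and 12 of 15 effectors were also above 0 in this pair. So were 4 of 10 AP-1 relatives, 5 of 11 MAP kinase inhibitors and 11 of 19 upstream genes. The median of the 10 members, the 2 below the FPKM filter included, was 0.44, while that of the genes that passed it was -0.05, with the middle 50% between -0.23 and 0.14. *Egr1* was 1.49-fold higher (log2 ratio 0.58, 0.55 to 0.61), *Egr2* 1.47-fold (0.56, 0.21 to 0.91) and *Fos* 1.38-fold (0.46, 0.40 to 0.52). *Nr4a3* had the largest ratio, 0.79 (0.26 to 1.33), on 81 and 49 reads. The intervals of *Nr4a1* (0.07, -0.07 to 0.22) and *Egr3* held 0. In the same pair, all 7 oligodendrocyte markers (median log2 ratio -0.69) and 11 of 13 microglial markers (-0.53) were lower in NF, and their part was not tested. A second library of each culture would be needed to say whether ratios of this size exceed the variation between cultures.

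Ctx astrocytes differed from VM astrocytes, both without a virus entry, by at least 2-fold in *Nr4a1* and *Fosb*. *Nr4a1* was 2.30-fold lower in Ctx astrocytes (log2 ratio -1.20, -1.39 to -1.01), 1 of 10 members where 9.89% of 12553 genes were lower. *Fosb* was 2.15-fold higher (1.11, 0.84 to 1.38), 1 of 10 where 4.49% were higher. Each count is a single gene, on a background of this order. Only 8 members met the FPKM filter behind these shares, since *Egr3* and *Nr4a3* did not. *Egr1* was 1.92-fold lower (-0.94, -0.99 to -0.90), just short of 2-fold, and *Nr4a3* had 15 reads against 49. *Jun* and *Junb* had log2 ratios of -0.02 and -0.01 with intervals that held 0, and other scalings turned both to small values above 0. The proliferation markers *Mki67* and *Top2a* summed to a CPM of 47.8 in Ctx astrocytes and 210 in VM, and 12 of 13 microglial markers and 5 of 6 vascular and fibroblast markers (median log2 ratio -1.33) were lower in Ctx astrocytes. Of the 9 astrocyte markers, 8 were higher there (1.23). Their part was not tested.

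Ctx NPCs against Ctx astrocytes gave the largest single ratio among the members. *Egr2* was 10.4-fold higher in Ctx NPCs (log2 ratio 3.38, 3.17 to 3.61), *Nr4a1* 2.73-fold higher (1.45, 1.27 to 1.64) and *Arc* 2.18-fold higher (1.12, 0.85 to 1.41). *Fosb* was 3.92-fold lower (-1.97, -2.33 to -1.64). This made 3 of 10 members higher, where 20.1% of 12623 genes were, and 1 of 10 lower, where 17.9% were, so these counts lie near the background of a pair that differed widely. The FPKM filter was met by 8 members, without *Egr3* and *Nr4a3*. *Fos* was 1.74-fold higher (0.80, 0.74 to 0.86), *Junb* was 1.67-fold lower and *Egr1* 1.09-fold lower. edgeR's TMM factors lowered the median log2 ratio of all genes in this pair by 0.18, which leaves these directions in place but puts *Arc* below 2-fold (log2 ratio 0.94, and 0.95 with DESeq2's size factors), leaving 2 members higher. All 7 oligodendrocyte markers were higher in Ctx NPCs, with a median log2 ratio of 6.01, and 12 of 13 microglial markers were lower. The part of these cells in the values of the members was not tested.

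**Figure D3:**
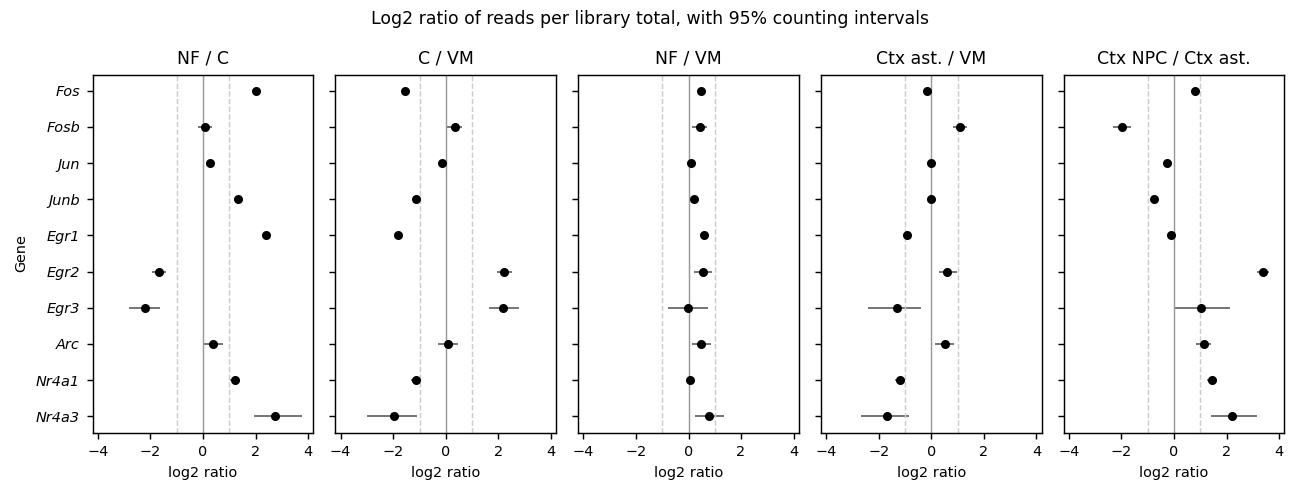
Log2 ratio of each member in the 5 comparisons, with bars for the 95% counting interval and dashed lines at 2-fold. In C / VM, *Fos*, *Junb*, *Egr1* and *Nr4a1* lie left of the lower dashed line and *Egr2* and *Egr3* right of the upper one, whereas no member with FPKM > 1 passes a dashed line in NF / VM.

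Of 11 relatives of the AP-1 members, 10 passed the FPKM filter between C and VM. By 2-fold, 1 was lower and 2 were higher, where 8.48% and 7.3% of all genes were, and the median log2 ratio was -0.06. *Jund*, a Jun gene with steadier expression in most cells, had a CPM of 355 in VM, 147 in C, 342 in NF, 269 in Ctx astrocytes and 179 in Ctx NPCs, and was the 1 lower gene (log2 ratio -1.27). *Atf3*, a stress-induced factor, had a CPM of 29.8, 84.4, 36.4, 28.4 and 107 in the same order. *Batf*, an AP-1 factor of immune cells, had 27, 115, 11, 4 and 0 reads, its ratio of 1.99 in C against VM being the largest of the list. *Fosl1* made up 40.4% of the Fos family FPKM in C and 17.1% or less in the other libraries. Against C, 2 genes of the list were lower and 2 higher in NF, with *Batf* (-3.18) and *Jund* (1.22) at the ends. Between NF and VM, *Batf* (-1.19, -2.39 to -0.17) was the only gene of the list past 2-fold. It passed the filter only through VM, with an FPKM of 1.40 there and 0.60 in NF. In NF against C, *Batf* passed it only through C (FPKM 5.62). In Ctx against VM astrocytes, it passed only through VM, with an FPKM of 0.21 in Ctx astrocytes. In Ctx astrocytes 2 genes were lower than in VM, with *Batf* at -2.62, and in Ctx NPCs 2 were lower and 2 higher than in Ctx astrocytes, between *Mafk* (-1.59) and *Batf3* (2.23). For these and the lists that follow, the shares of all genes lower and higher were 9.73% and 9.53% in NF against C, 0.668% and 0.322% in NF against VM, 9.89% and 4.49% in Ctx against VM astrocytes, and 17.9% and 20.1% in Ctx NPCs against Ctx astrocytes. The Egr corepressor genes *Nab1* and *Nab2* passed 2-fold in none of the 5 comparisons, and *Egr4* had 2 to 17 reads. Of the 3 retinoid X receptor genes, which encode partners of some Nr4a receptors, 2 passed the filter and none was past 2-fold.

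Among 13 other immediate early regulators, 12 passed the filter between C and VM, 4 were lower and none was higher, where 8.48% and 7.3% of all genes were. These 4 were *Btg2*, an antiproliferative gene, *Ier2*, *Klf4*, a zinc finger factor, and *Per1*, a clock gene that glucocorticoids and cyclic AMP induce. *Btg2* had a CPM of 470 in VM, 94.5 in C, 655 in NF, 439 in Ctx astrocytes and 131 in Ctx NPCs, a log2 ratio of -2.31 in C against VM. *Ier2* had 126, 40.7, 137, 50.4 and 61.3 in the same order, and *Klf4* was likewise low in C against VM (log2 ratio -1.55). In NF against C, 4 of the list were higher, led by *Btg2* (2.79), and *Crem*, whose products include a cyclic AMP repressor, was lower (-1.25). None of the 12 passed 2-fold between NF and VM. In Ctx astrocytes 4 were lower than in VM, *Myc* most (-1.50). In Ctx NPCs 4 were lower and 2 higher than in Ctx astrocytes, with *Klf2* at -2.29 and the activity-dependent factor *Npas4* at 2.73, on 83 and 13 reads. *Npas4* passed the filter only through Ctx NPCs, where it was high, with an FPKM of 1.26 there and 0.185 in Ctx astrocytes. *Klf2* passed it only through Ctx astrocytes, with an FPKM of 2.87 there and 0.577 in Ctx NPCs.

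All 16 effector genes of the early response passed the filter between C and VM, of which 5 (*Zfp36*, *Ccn1*, *Sik1*, *Gadd45b* and *Gem*) were lower and 1 was higher, where 8.48% and 7.3% of all genes were. *Ccn1*, a matrix protein gene, had a CPM of 2449 in VM, 751 in C, 3244 in NF, 2187 in Ctx astrocytes and 204 in Ctx NPCs. *Gadd45b*, a stress gene, lay furthest below VM in C (log2 ratio -1.88), and *Rgs2*, an inhibitor of G protein signals, was the 1 higher gene (1.03). In NF against C, 5 were higher, *Gadd45b* most (2.58), and *Rgs2* was lower (-1.62), where 9.53% and 9.73% of all genes were. No gene of the list passed 2-fold between NF and VM. In Ctx astrocytes 4 of 16 were lower than in VM, *Phlda1* most (-2.28), where 9.89% of all genes were. In Ctx NPCs 6 of 16 were lower and 4 higher than in Ctx astrocytes, between *Ccn2* (-4.19) and *Rgs2* (2.04), where 17.9% and 20.1% of all genes were.

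The inhibitors of MAP kinase signals were split between the phosphatases. *Dusp1*, itself an immediate early gene, had a CPM of 329 in VM, 108 in C, 425 in NF, 133 in Ctx astrocytes and 23.1 in Ctx NPCs. *Dusp6*, a phosphatase specific for ERK kinases, had 130, 309, 124, 69.1 and 42.7 in the same order, and was thus highest where *Dusp1*, *Fos* and *Egr1* were low among the VM libraries. *Dusp4*, *Dusp5* and *Spred2* were also higher in C than in VM by 2-fold, by log2 ratios of 1.81, 1.26 and 1.53. In all, 4 of 11 inhibitors were higher in C and 2 (*Dusp1* and *Spry1*) lower, where 7.3% and 8.48% of all genes were, with a median log2 ratio of 0.92 beside -0.01 for all genes. In NF against C, 4 of 10 that passed the filter were lower, *Dusp5* most (-1.74), and *Dusp1* was higher (1.97). None passed 2-fold between NF and VM. All 11 were below 0 in Ctx astrocytes against VM, 3 of them past 2-fold with *Dusp1* at -1.31, beside a median of -0.67 for the list and -0.05 for all genes. The share of all genes below 0 is not given here. Also below 0 in this pair were 9 of 10 AP-1 relatives, 8 of 12 early regulators, 13 of 16 effectors and 10 of 19 upstream genes. In Ctx NPCs 3 were lower and 3 higher than in Ctx astrocytes, between *Dusp1* (-2.52) and *Dusp4* (2.20).

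The kinases and factors upstream differed less between libraries. Of 19, which include *Srf*, the Elk genes, *Creb1* and the MAP kinases, none was past 2-fold between NF and C, NF and VM, or Ctx and VM astrocytes. In C against VM, *Elk4*, a partner of serum response factor, was higher by 2-fold (log2 ratio 1.10), as was the kinase gene *Rps6ka3* (1.01). In Ctx NPCs against Ctx astrocytes, 2 were lower and 1 higher, with *Elk3* at -1.42 and the CREB coactivator gene *Crtc1* at 1.60. The median log2 ratio of the list lay between -0.16 and 0.15 in the 5 comparisons.

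**Figure D4:**
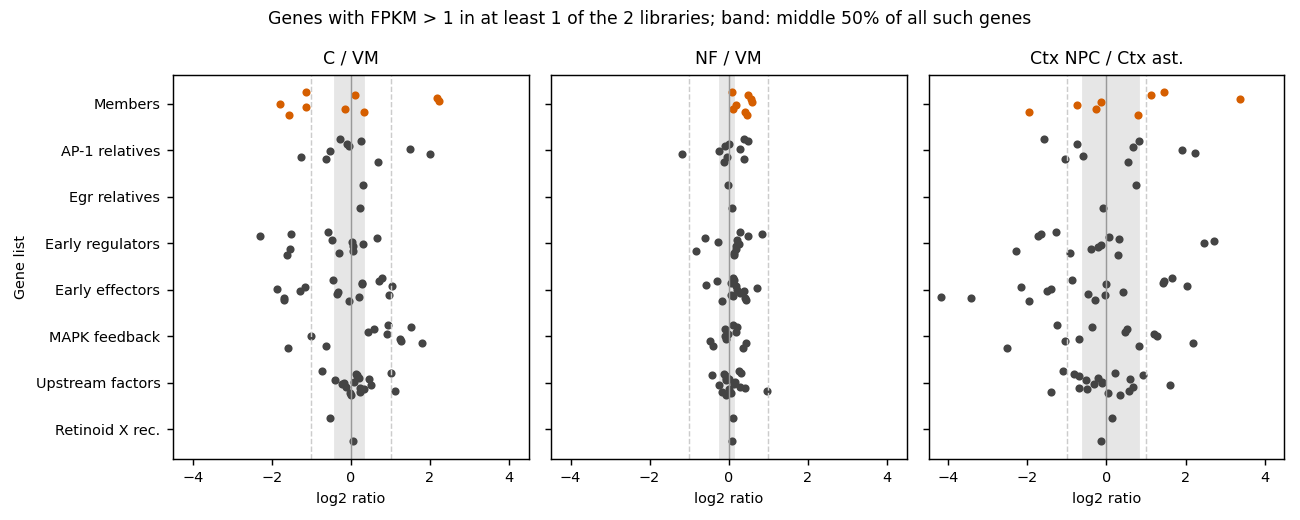
Log2 ratio of each gene with FPKM > 1 in at least 1 library, by list, for C against VM, NF against VM and Ctx NPCs against Ctx astrocytes. The grey band holds the middle 50% of all such genes, members are orange, and the vertical scatter only separates points. In C / VM the members, AP-1 relatives, effectors and MAP kinase inhibitors pass the dashed lines at 2-fold on both sides. The early regulators pass on the lower side only and the upstream genes on the upper side only. In NF / VM only *Batf*, among the AP-1 relatives, passes a dashed line, on 11 and 27 reads.

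The genes whose profile over the 5 libraries was most like that of a member were sought among the 9914 genes whose CPM reached 5 in each library. Likeness was the root-mean-square difference of log2 CPM after centring each gene on its own mean, over 5 libraries, and is a description. *Tenm3*, *Dusp8* and *Alpl* lay nearest to *Fos*, at differences of 0.11, 0.13 and 0.17. *Adgrv1*, *Lrrc9* and *Ypel2* lay nearest to *Egr1*, at 0.18, 0.23 and 0.24. *Grb10*, *Spry1* and *Ccdc8* lay nearest to *Nr4a1*, at 0.11, 0.12 and 0.20. The other members in that set were farther away. *Junb* was the member nearest to *Egr1*, at a difference of 0.47 and rank 48, *Nr4a1* the member nearest to *Fos*, at 0.48 and rank 253, and *Egr2* differed from *Egr1* by 2.08.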

How the data were processed

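RNA-seq libraries of 5 mouse cultures were used, each condition with 1. Per the study's methods, the authors used STAR for alignment to GRCm38/mm10 after trimming (quality 20), and HTSeq-count with RefSeq exons, while the submitters' processing notes name mm9 and list bcl2fastq 1.8.4, STAR, HTSeq and DESeq. The strand setting is not given in the sources used here. The deposited counts are unnormalized reads per transcript, and the deposited FPKM is the count per transcript length and library total. A last row with the library total was left out. Of 20178 transcripts, 19997 were paired with a symbol through RefSeq accessions of GRCm38.p6, and coordinates are RefSeq's on that build.

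Log2 ratios were computed from counts over library totals, after adding 0.5 reads adjusted for library size. Genes past 2-fold needed FPKM > 1 in at least 1 of the 2 libraries. Intervals are 95% Clopper-Pearson intervals of the read ratio. They cover counting error only and leave out the variation between cultures. They treat reads as independent, which PCR copies are not, so they may be too narrow. Reads assigned to 1 transcript per gene do not separate splice forms. The members and lists were chosen with earlier results of these data known. Named by rule are the members, the transduced genes, in each list and comparison the gene furthest below and furthest above 1-fold among those past 2-fold, and the 3 genes nearest to *Fos*, *Egr1* and *Nr4a1*. Other genes of the lists, and values of a list gene in further comparisons, were added after their values were seen. The calculation was tested on simulated counts. Alternatives were edgeR's TMM, DESeq2's size factors, 5 reads added, other filters and 1.5-fold and 3-fold cutoffs. Software was edgeR 4.0.16 and DESeq2 1.42.0 in R 4.3.3, and scipy 1.17.1 in Python 3.11.15.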

Additional observations from a re-analysis of the deposited data

How the results depend on the processing

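With edgeR's TMM normalization, DESeq2's size factors or 5 reads added, each count of members past 2-fold stayed within 1.5 times its value, and no member past 2-fold changed direction. Under TMM and DESeq2's size factors *Arc* was no longer past 2-fold in Ctx NPCs against Ctx astrocytes (log2 ratios of 0.94 and 0.95), which left 2 members higher, as both lower the median of all genes there by 0.18. *Jun* and *Junb* in Ctx against VM astrocytes, at -0.02 and -0.01, became 0.05 and 0.05 under TMM and 0.04 and 0.04 under DESeq2. Of 70 alternative counts, 58 stayed within that limit. With FPKM > 1 in both libraries, 1 member was lower in NF than in C and 1 higher in C than in VM, since *Egr3* drops out. With no filter, 3 members were lower in Ctx than in VM astrocytes and 5 higher in Ctx NPCs, compared with Ctx astrocytes, since genes with few reads enter. A 3-fold cutoff left 2 members higher in NF than in C, 1 lower in C than in VM, 0 lower and 0 higher in Ctx than in VM astrocytes, and 1 higher in Ctx NPCs. A 1.5-fold cutoff gave 2 lower and 2 higher in Ctx than in VM astrocytes, and 2 lower in Ctx NPCs. Scaling moved log2 ratios of members by at most 0.18, and 5 reads added by at most 0.36. No paired analysis was possible because each condition has 1 library. For *Egr3* and *Nr4a3*, with 13 to 160 and 13 to 81 reads, depth limits the ratios.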

Other observations

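The balance within AP-1 differed between libraries. *Fos* over *Jun* FPKM was 0.76 in VM, 0.28 in C, 0.98 in NF, 0.68 in Ctx astrocytes and 1.44 in Ctx NPCs. The FPKM of *Fos* thus exceeded that of *Jun* only in Ctx NPCs, where *Fos* had fewer reads (5336 against 5643). The limit given above for ratios between genes holds here too. The ratio of *Egr1* to *Egr2* FPKM was 95.2 in VM, 96.6 in NF and 32.3 in Ctx astrocytes, against 5.83 in C and 2.83 in Ctx NPCs. The ratio of *Fos* to *Egr1* FPKM was 0.42 to 0.53 in the 3 VM libraries, 0.77 in Ctx astrocytes and 1.46 in Ctx NPCs, so that *Fos* and *Egr1* kept a similar proportion in the VM cultures although both differed in level.

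*Egr2* was compared with other genes after its values were seen. Over the 5 libraries, the profiles nearest to it were those of *Plcg2*, *Olig2* and *Rasgef1b*, at root-mean-square differences of 0.22, 0.34 and 0.38 on the log2 scale. *Olig2*, an oligodendrocyte lineage factor, had a CPM of 41.5 in VM, 121 in C, 29.5 in NF, 48.0 in Ctx astrocytes and 465 in Ctx NPCs. *Plcg2*, a phospholipase gene of immune cells, had 6.48, 29.1, 6.79, 6.86 and 81.9 in the same order. With 5 libraries this likeness is a description.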
